A study of Homo sapiens with 6 samples.

Results

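The repair of DNA double-strand breaks was followed through 40 genes in PC9 cells, a human lung adenocarcinoma line with a mutated EGFR, in which the splicing factor RBM10 was targeted. The 40 genes were listed by name, with earlier results of these data known. All 40 had a row among the 16306 genes of the deposited table. RNA-seq was compared between 3 libraries of PC9 cells with a negative control shRNA (sh-NC) and 3 libraries with an shRNA against RBM10 (shRBM10), and no other treatment was named for either group. The RBM10 shRNA of these libraries was not named, and whether the 3 shRBM10 libraries share one shRNA cannot be told apart from their being replicates. The names of the last 2 shRBM10 columns matched no sample title, so these libraries, called B and C here, carry no replicate number. The labels call each sample a replicate biosample and do not say whether the libraries came from separate cultures. The p-values therefore measure the spread between these libraries, which may be technical.

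A double-strand break is first bound by sensor complexes, which activate the kinases ATM and ATR and mark the surrounding chromatin through MDC1, RNF8, RNF168 and 53BP1. The break is then either sealed directly by end joining, in which the Ku heterodimer holds the ends for DNA-PKcs and the LIG4 ligase, or resected to single-stranded DNA and copied from the sister chromatid by homologous recombination. The Fanconi anemia proteins work with the recombination machinery where the lesion is an interstrand crosslink. Genes of recombination are usually transcribed most in S phase and G2, when a sister chromatid is present, while end joining acts throughout the cell cycle.

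The libraries held between 16606401 and 18864241 counts each. RBM10 itself had 77.9, 64.4 and 79.96 CPM (counts scaled to the library size, with TMM factors) in replicates 1 to 3 of sh-NC and 29.2, 28.002 and 36.6 CPM in libraries A to C of shRBM10. Every shRBM10 library was below every sh-NC library for RBM10, a log2 fold change of -1.24 ± 0.23 (SE), with an unadjusted p of 0.000316 and an adjusted p of 0.10004 by edgeR, so the targeted gene followed the labels without passing the adjusted limit. The epithelial markers EPCAM, KRT8, KRT18, KRT19, CDH1 and EGFR summed to 26741 to 33849 CPM in sh-NC and 21337 to 29692 CPM in shRBM10. The 5 retinal markers of 10 that had a row summed to 4.52 to 6.76 CPM over all 6 libraries, which bears on the protocol text of the labels, where retinas are mentioned. Markers of leukocytes, fibroblasts and endothelium summed to between 1.41 and 11.4 CPM per list and library. The sh-NC replicate 2 library stood apart from the other 5, with a TMM factor of 0.738 against 1.03 to 1.08.

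In control cells the 40 genes covered a wide span of abundance. The authors' TPM values, which are corrected for transcript length, were highest for XRCC6, the Ku70 subunit, at 634 ± 77.2 TPM (SD over the 3 sh-NC libraries), and next for PARP1, the break-sensing poly(ADP-ribose) polymerase, at 101 ± 49.7 TPM. XRCC6 lay between 545 and 683 TPM and so above every PARP1 value, while the lowest PARP1 value of 44.4 TPM fell within the range of XRCC3. XRCC3, a strand-exchange mediator, and XRCC5, the Ku80 subunit, followed at 41.7 and 41.1 TPM, and their ranges overlapped. A group of 7 genes, these 2 included, lay between 10 and 50 TPM on average and 25 genes between 1 and 10 TPM. LIG4, WRN, BRCA2, POLQ, BRIP1 and FANCM were the 6 genes under 1 TPM, and the ranges of these 6 overlapped one another. PRKDC, which encodes DNA-PKcs, was at 10.6, 0.790 and 11.3 TPM in replicates 1 to 3 of sh-NC, the low value being that of replicate 2. The place of replicate 2 depended on the scale, since XRCC3 was lowest of the 3 there in TPM (28.9) and highest in TMM-normalized CPM (98.9). CHEK2, the checkpoint kinase downstream of ATM, was among the least variable in TPM, at 23.3 ± 1.48. This too depended on the scale, since CHEK2 was at 25.7, 57.3 and 27.2 in TMM-normalized CPM in replicates 1 to 3.

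**Figure D1:**
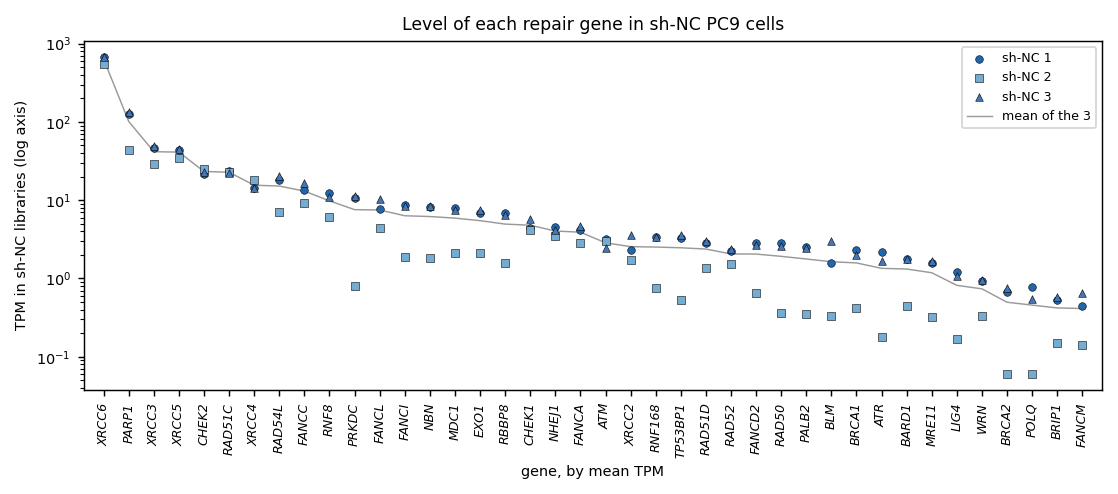
TPM of each of the 40 repair genes (log axis) in the 3 sh-NC libraries, ordered by the mean, which is drawn as a line. XRCC6 sits above all others at a mean of 634 TPM, and sh-NC replicate 2 lies far below the other replicates for PRKDC at 0.790 TPM.

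With RBM10 targeted, no member passed the limits in edgeR, a log2 fold change beyond ±1 at an adjusted p under 0.05, and 2 of 12620 genes tested did (0.0158%). All 40 members passed the filter on low counts, with counts from 11 to 20093 per library. At an unadjusted p under 0.05, 10 members were higher in shRBM10, against 15.7% of all genes, and 4 were lower, against 8.6%. With the fold limit added, 8 members were higher, against 10.1% of all genes, and 0 were lower, against 1.53%. With 1 library left out the 8 became 2 without sh-NC replicate 2, against 4.81% of all genes, and 11 without C, against 1686 of 12611. They became 1 without library A and 2 without B. The 4 became 8 without sh-NC replicate 2, against 12.7% of all genes, 2 without sh-NC replicate 3 and 1 without B. The counts over all genes are not given for the fits without A, B or sh-NC replicate 3. In the fit of all libraries the higher members came to 25% and 20% of the list at these limits, above the background in both cases. The median log2 fold change of the members was 0.59 with 24 of 40 higher, beside a median of 0.027 with 6514 of 12620 higher for all genes. DESeq2 called 1 member at the adjusted limits, TP53BP1 (log2 fold change 1.43, adjusted p = 0.0441), where it called 4.35% of 12493 genes. XRCC3 had the lowest adjusted p of the members with both tools, 0.134 by edgeR and 0.0185 by DESeq2, with a fold change short of the limit.

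The groups did not overlap for 11 members. NBN, RAD52, LIG4, TP53BP1 and FANCL were higher in all shRBM10 libraries than in any sh-NC library, 12.5% of the members against 13.8% of all genes. RAD51D, RAD54L, XRCC3, XRCC6, FANCA and FANCC were lower in all shRBM10 libraries, 15% of the members against 16.2% of all genes. Both shares lie near the background. In the other 29 members at least 1 library of one group fell within the other group. Single values of 3 against 3 libraries cannot go below a p of 0.1 in a two-sided exact permutation test.

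**Figure D2:**
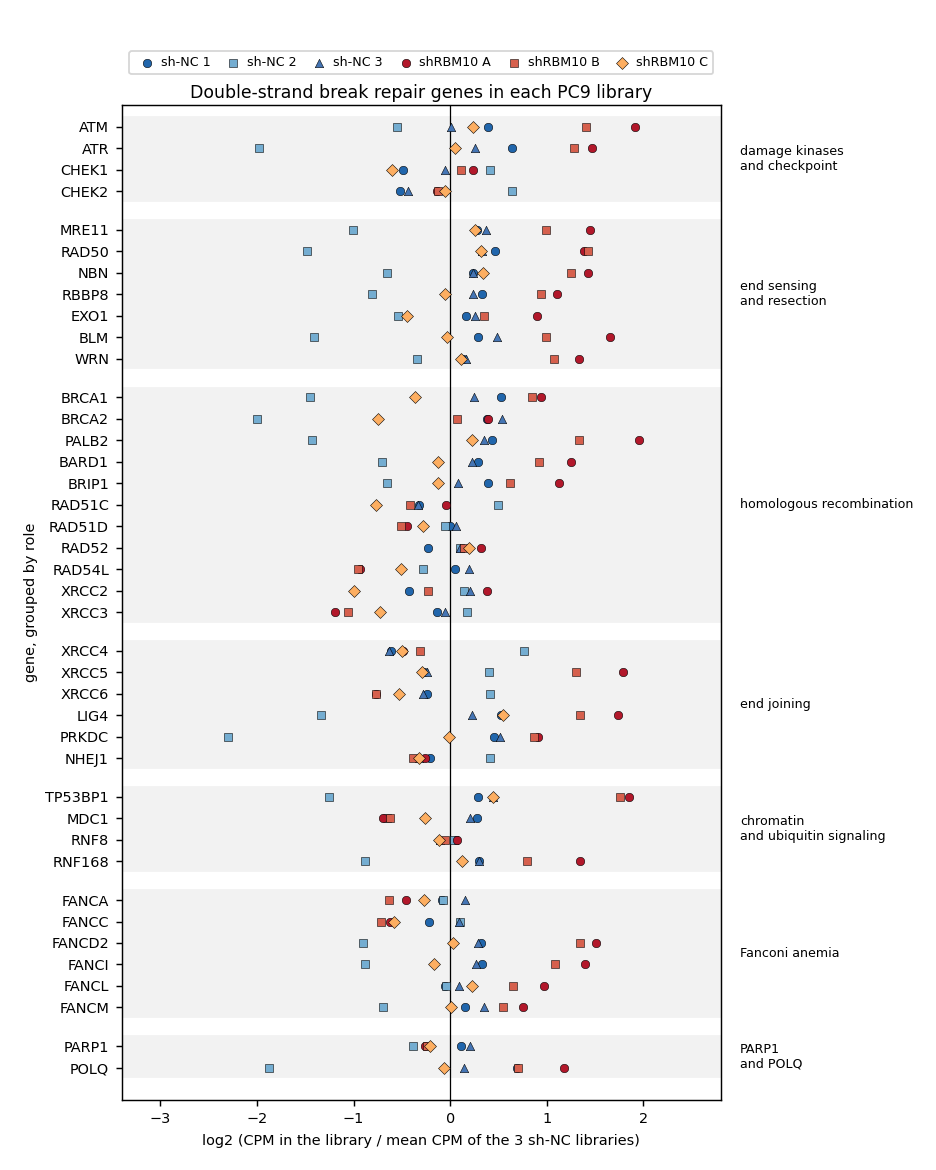
Level of each repair gene in each of the 6 libraries as log2 of its CPM over the mean CPM of the 3 sh-NC libraries, grouped by role. Libraries A and B of shRBM10 lie far to the right for most end-sensing genes, shRBM10 library C lies near 0, and sh-NC replicate 2 lies to the left of the other controls in 26 of 40 genes.

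Among the end sensors, the MRE11-RAD50-NBN complex holds broken ends together and starts their resection. NBN (nibrin) was at 21.0, 11.3 and 21.0 CPM in replicates 1 to 3 of sh-NC and at 47.9, 42.4 and 22.6 CPM in libraries A to C of shRBM10. Library C was close to sh-NC replicates 1 and 3, and libraries A and B were at higher levels than every control. The log2 fold change of NBN was 1.08 ± 0.36 (SE), with an unadjusted p of 0.0131 and an adjusted p of 0.158 by edgeR. RAD50, the ATPase of the complex, was at 16.7, 4.32 and 15.2 CPM in sh-NC and 31.7, 32.5 and 15.1 CPM in shRBM10, a log2 fold change of 1.12 ± 0.49 (SE), with an unadjusted p of 0.0453 and an adjusted p of 0.198 by edgeR. MRE11, its nuclease, was at 5.97, 2.46 and 6.38 CPM in sh-NC and 13.5, 9.86 and 5.91 CPM in shRBM10, a log2 fold change of 0.97 ± 0.43 (SE), with an unadjusted p of 0.0481 and an adjusted p of 0.202 by edgeR. For both genes library C fell inside the sh-NC range and sh-NC replicate 2 was the lowest of all 6 libraries. WRN, a RecQ helicase that unwinds ends for resection, was at 3.60, 2.61 and 3.68 CPM in sh-NC and 8.32, 6.94 and 3.55 CPM in shRBM10, a log2 fold change of 0.92 ± 0.37 (SE), with an unadjusted p of 0.0323 and an adjusted p of 0.182 by edgeR. The 3 other genes of this role did not reach an unadjusted p of 0.05, with log2 fold changes of 0.74 for RBBP8 (CtIP, the cofactor that starts resection), 1.01 for BLM (the Bloom helicase) and 0.36 for EXO1 (the long-range nuclease). All 7 genes of this role had a positive log2 fold change, with a median of 0.97, and 4 of 7 were higher at an unadjusted p under 0.05, where 15.7% of all genes were. Without sh-NC replicate 2 this count was 1 of 7, against 11.6% of all genes. With a trend on GC content removed from each library it was 0 of 7, against 1083 of 12620 genes. With trends on GC content and length removed it was also 0 of 7, against 12.3% of genes.

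Of the damage kinases, ATM signals double-strand breaks and ATR single-stranded DNA. ATM was at 4.44, 2.31 and 3.39 CPM in sh-NC and 12.7, 8.97 and 3.97 CPM in shRBM10, again with library C inside the sh-NC range. Its log2 fold change was 1.33 ± 0.44 (SE), with an unadjusted p of 0.0138 and an adjusted p of 0.158 by edgeR. ATR was at 12.8, 2.09 and 9.82 CPM in sh-NC and 22.9, 20.1 and 8.52 CPM in shRBM10, with a log2 fold change of 1.05 and an unadjusted p of 0.104 by edgeR. The effector kinases CHEK1 and CHEK2 had log2 fold changes of -0.036 and -0.10, with the groups overlapping. Scaling by library size alone turned the sign of both.

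Homologous recombination divided by gene. PALB2, which bridges BRCA1 and BRCA2, was at 7.06, 1.94 and 6.68 CPM in sh-NC and 20.3, 13.1 and 6.12 CPM in shRBM10. Libraries A and B stood above all controls and library C within them, and the log2 fold change was 1.32 ± 0.54 (SE), with an unadjusted p of 0.0340 and an adjusted p of 0.184 by edgeR. XRCC3, which together with RAD51C forms a complex that acts on recombination intermediates, was at 80.2, 98.9 and 84.7 CPM in sh-NC and 38.4, 42.3 and 53.3 CPM in shRBM10. The 3 shRBM10 values all lay below the lowest sh-NC value, and XRCC3 had the smallest unadjusted p of the 40 members at 0.00173. Its log2 fold change was -0.98 ± 0.23 (SE), with an adjusted p of 0.134 by edgeR. RAD54L, the motor protein that assists strand invasion, was at 33.9, 26.9 and 37.5 CPM in sh-NC and 17.1, 16.8 and 23.0 CPM in shRBM10. Here too the groups did not overlap, and the log2 fold change was -0.79 ± 0.26 (SE), with an unadjusted p of 0.0131 and an adjusted p of 0.158 by edgeR.

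The other recombination genes did not reach an unadjusted p of 0.05. BRCA1 and its partner BARD1, an E3 ubiquitin ligase, had log2 fold changes of 0.57 and 0.78, and the BRCA1-bound helicase BRIP1 of 0.61. BRCA2, which loads the recombinase, was at 5.82, 1.12 and 6.48 CPM in sh-NC and 5.87, 4.69 and 2.67 CPM in shRBM10. Its lowest value was sh-NC replicate 2 and its highest sh-NC replicate 3, and its log2 fold change was -0.039. The paralogs RAD51C, RAD51D and XRCC2 had log2 fold changes of -0.38, -0.41 and -0.17. RAD52, the annealing protein, was at 3.85, 4.84 and 4.86 CPM in sh-NC and 5.64, 5.01 and 5.18 CPM in shRBM10, so its groups did not overlap at a log2 fold change of 0.22. The median over the 11 genes of this role was -0.039, with 5 higher and 6 lower.

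The end-joining genes held opposite patterns within one complex. XRCC6 (Ku70) was at 952, 1497 and 924 CPM in sh-NC and 662, 661 and 776 CPM in shRBM10, so that every shRBM10 library was below every sh-NC library. The log2 fold change of XRCC6 was -0.68 ± 0.29 (SE), with an unadjusted p of 0.0386 and an adjusted p of 0.192 by edgeR. XRCC5 (Ku80), its obligate partner in the heterodimer, was at 101, 161 and 103 CPM in sh-NC and 419.9, 299 and 99.5 CPM in shRBM10. Libraries A and B were the highest of the 6 and library C the lowest, and the log2 fold change of XRCC5 was 1.16 ± 0.45 (SE), with an unadjusted p of 0.0281 and an adjusted p of 0.177 by edgeR. Within a library the XRCC5 CPM was 10.6%, 10.7% and 11.2% of the XRCC6 CPM in replicates 1 to 3 of sh-NC, and 63.4%, 45.3% and 12.8% in libraries A to C of shRBM10. This ratio was nearly the same in all 3 controls and in library C, and several times higher in libraries A and B. It compares the change of each gene between libraries and not the amounts of the 2 subunits, since CPM is not corrected for length. The annotation names 5 pseudogenes after XRCC6, and how reads shared with them were counted is not given in the sources used here.

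PRKDC (DNA-PKcs), the kinase that Ku recruits, was at 104, 15.6 and 109.6 CPM in sh-NC and 144, 139 and 76.0 CPM in shRBM10. The sh-NC replicate 2 value was far below the other 5, and the log2 fold change of 0.64 had an unadjusted p of 0.291 by edgeR. Without sh-NC replicate 2 the log2 fold change of PRKDC was 0.077. LIG4, the ligase of end joining, was at 3.50, 0.969 and 2.85 CPM in sh-NC and 8.16, 6.21 and 3.55 CPM in shRBM10, a log2 fold change of 1.27 ± 0.48 (SE), with an unadjusted p of 0.0242 and an adjusted p of 0.174 by edgeR. Its 3 shRBM10 values lay above every control, library C by a narrow margin. XRCC4, the scaffold of LIG4, and NHEJ1 (XLF), which stabilizes it, had log2 fold changes of -0.43 and -0.32. Their sh-NC replicate 2 values were above those of the other 5 libraries.

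**Figure D3:**
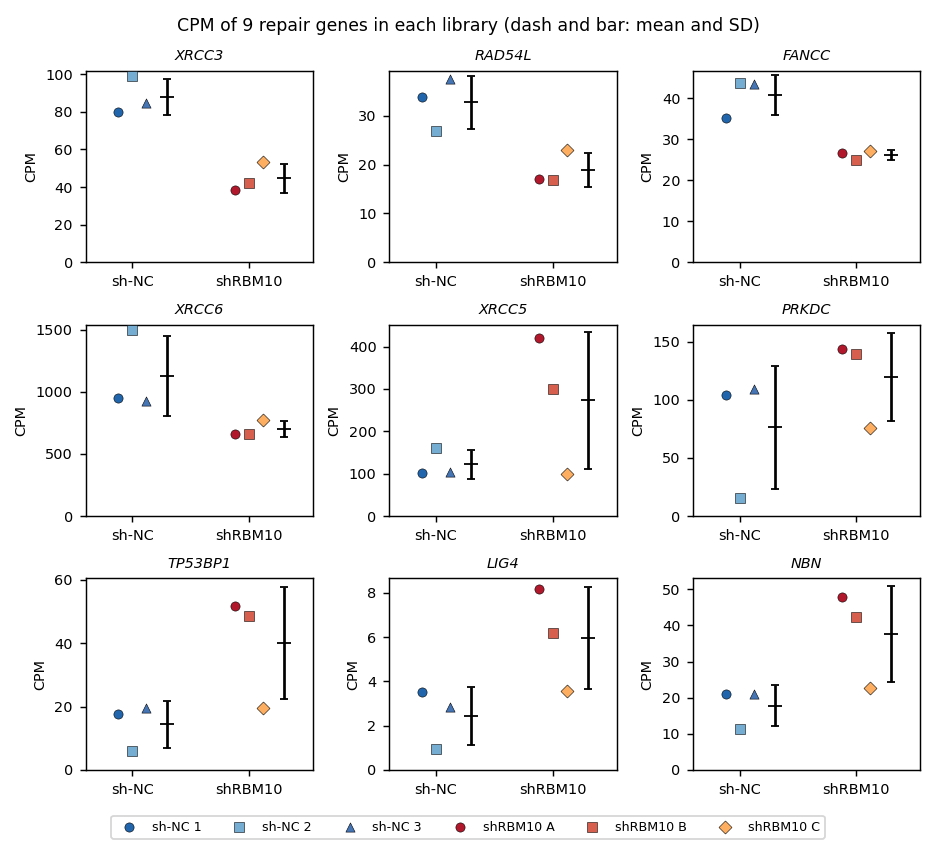
CPM of XRCC3, RAD54L, FANCC, XRCC6, XRCC5, PRKDC, TP53BP1, LIG4 and NBN in each library, with the mean and SD of each group (n = 3). The groups are separate for XRCC3, RAD54L, FANCC and XRCC6 (lower in shRBM10) and for TP53BP1, LIG4 and NBN (higher). In the last 3, library C lies close to the highest control. For XRCC5 library C of shRBM10 lies at 99.5 CPM beside controls of 101, 161 and 103 CPM.

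TP53BP1 (53BP1), the chromatin reader that shields ends from resection, had the highest log2 fold change of the 40. It was at 17.6, 6.04 and 19.6 CPM in replicates 1 to 3 of sh-NC and at 51.8, 48.7 and 19.7 CPM in libraries A to C of shRBM10. Libraries A and B were far above all controls, and library C was level with sh-NC replicate 3, so that the groups were separate only by the margin between these values. The log2 fold change of TP53BP1 was 1.47 ± 0.48 (SE), with an unadjusted p of 0.0125 and an adjusted p of 0.158 by edgeR. MDC1, the scaffold that binds phosphorylated H2AX, was at 38.6, 20.3 and 36.6 CPM in sh-NC and 19.6, 20.6 and 26.5 CPM in shRBM10, a log2 fold change of -0.52 with an unadjusted p of 0.117 by edgeR. The ubiquitin ligases RNF8 and RNF168, which act after MDC1, had log2 fold changes of -0.030 and 0.83.

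In the Fanconi anemia pathway a core complex with FANCA, FANCC, FANCL and FANCM ubiquitinates the FANCI-FANCD2 pair. FANCD2 was at 9.92, 4.25 and 9.72 CPM in sh-NC and 22.6, 20.2 and 8.10 CPM in shRBM10. Libraries A and B exceeded all controls and library C did not, and its log2 fold change was 1.08 ± 0.45 (SE), with an unadjusted p of 0.0376 and an adjusted p of 0.191 by edgeR. FANCI followed the same order at 29.02, 12.6 and 27.8 CPM in sh-NC and 61.0, 49.1 and 20.5 CPM in shRBM10, with a log2 fold change of 0.91 and an unadjusted p of 0.0630 by edgeR. FANCC was at 35.0, 43.6 and 43.5 CPM in sh-NC and 26.5, 24.8 and 27.1 CPM in shRBM10. Its 3 shRBM10 values were close together and below every control, at a log2 fold change of -0.64 ± 0.23 (SE), with an unadjusted p of 0.0186 and an adjusted p of 0.169 by edgeR. FANCA, FANCL (the ligase) and FANCM (the anchor on DNA) had log2 fold changes of -0.45, 0.64 and 0.45. Of the last role, PARP1 had a log2 fold change of -0.24, and POLQ, the polymerase of microhomology-mediated end joining, of 0.67, with unadjusted p-values of 0.344 and 0.253 by edgeR.

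The direction of a member went with the base composition of its transcript. All 6 members with a GC content of 50% or more (RAD54L, XRCC3, XRCC6, MDC1, FANCA and FANCC) had a negative log2 fold change, and 9 of 11 members under 40% GC had a positive one. Over the 40 members, Pearson's r between log2 fold change and GC content was -0.61, beside -0.58 over 12343 genes with a known GC content. With the log2 length of the transcript it was 0.36 over the members and 0.38 over all genes. These are correlations across genes, which share libraries and are not independent replicates. The 20 members below the members' median GC content of 42.5% had a median log2 fold change of 0.71, and the 20 others of -0.14. The 20 members with transcripts of 5.21 kb or more had a median of 0.72, and the 20 shorter ones of -0.069.

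The same pattern differed between libraries of one group. Relative to the mean of the controls, the median log2 level of the 40 members was 0.25, -0.53 and 0.24 in replicates 1 to 3 of sh-NC. In libraries A to C of shRBM10 it was 1.05, 0.65 and -0.061, so that library C lay within the controls while A and B lay above all of them. Over the 40 members, r of this level with GC content was -0.65, -0.62 and -0.40 in libraries A to C of shRBM10. Over all genes it was -0.68, -0.63 and -0.12 in these libraries, so it was weak in library C. In replicates 1 to 3 of sh-NC the r with GC content over the members was -0.33, 0.29 and -0.22. In sh-NC replicate 2 the level went with length, at r = -0.73 over the members and -0.62 over all genes, and long members were the ones that stood low there. Of the 10 members higher at an unadjusted p under 0.05, all 10 had libraries A and B above every control, and in 3 (NBN, LIG4 and TP53BP1) library C was above every control too. Whether base composition and length have a part in these differences was not tested, and the fit with both trends removed is given here beside the first.

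When trends on GC content and length were removed from each library before the test, the median of the list turned negative. The median log2 fold change of the members was -0.16 with 18 of 40 higher, beside a median of -0.0095 with 6194 of 12620 higher for all genes. At an unadjusted p under 0.05, 1 member was higher, against 12.3% of all genes, and 11 were lower, against 13.3%, and none of the 40 passed the adjusted p and fold limits in edgeR, against 1.13% of all genes. The 1 higher member was TP53BP1, with a log2 fold change of 1.20 (unadjusted p = 0.0147). XRCC3 was at -0.64 with an adjusted p of 0.0389 by edgeR, past the p limit and short of the fold limit. RAD54L, XRCC6 and FANCC were at -0.64, -0.57 and -0.71. XRCC5 was at 0.52 with an unadjusted p of 0.235 by edgeR. In this fit 6 of 11 recombination genes were lower at an unadjusted p under 0.05 (BRCA2, RAD51C, RAD51D, RAD54L, XRCC2 and XRCC3), with a median of -0.64 for that role, and MDC1, RNF8, XRCC6, FANCA and FANCC made up the rest of the 11.

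When sh-NC replicate 2 was left out, the members had a median log2 fold change of 0.17, nearer to 0 than with all libraries, while 27 of 40 had a positive value. Of the 12620 genes tested with all libraries, 6432 had a positive value in this fit, with a median of 0.012. There were 3 members higher at an unadjusted p under 0.05, against 11.6% of all genes, and 8 lower, against 12.7%. With the fold limit added, 2 were higher (XRCC5 at 1.32 and TP53BP1 at 1.02), against 4.81% of all genes. NBN was the third at 0.75. XRCC3 and RAD54L stayed at -0.96 and -0.99. The 4 members lower in the fit of all libraries (XRCC3, RAD54L, XRCC6 and FANCC) were lower at an unadjusted p under 0.05 in both of these fits, and TP53BP1 was the 1 member of the 10 higher ones of which the same holds.

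**Figure D4:**
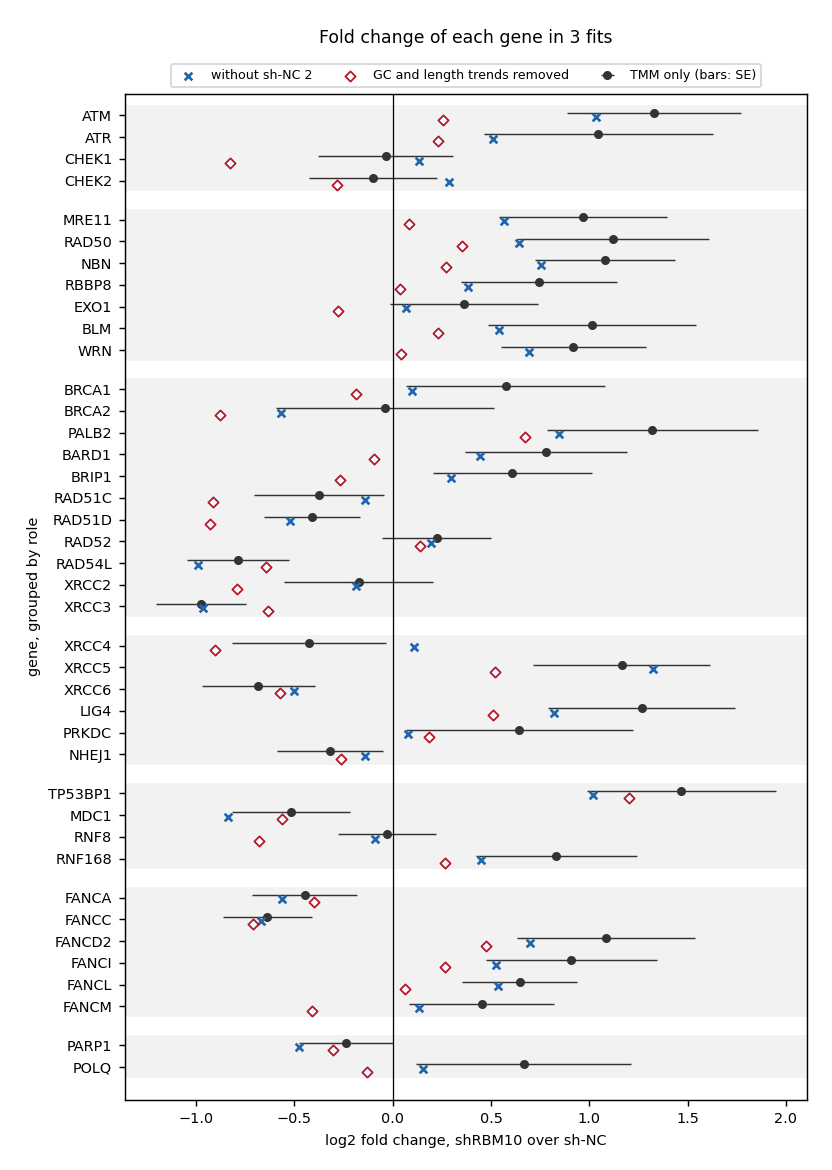
Log2 fold change of each gene in 3 edgeR fits: all libraries with TMM (filled points, bars of 1 SE), without sh-NC replicate 2 (crosses), and with GC and length trends removed (open diamonds). The end-sensing genes move towards 0 from a median of 0.97 to 0.082 with the trends removed, while XRCC3, RAD54L, XRCC6 and FANCC stay below 0 and TP53BP1 above 1 in all 3.

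The sequence before the start site is shown for XRCC3, RAD54L and FANCC, which were lower at an unadjusted p under 0.05, and for TP53BP1, so that genes of opposite direction can be set side by side. Each stretch lies within the 250 bases before a RefSeq gene start (GRCh38.p14) and is printed 5′ to 3′ on the strand of the gene, without the bases that GENCODE 29 places in an exon. XRCC6, the other lower member, had too few bases outside exons there and is not shown. Capitals mark CCAAT, the box bound by NF-Y, and TTNGCGC, an E2F-type element typical of S phase genes, both searched on both strands, with no overlap between the matches. The stretches are chr14:103715505-103715701 (minus strand) for XRCC3, chr1:46247438-46247687 (plus strand) for RAD54L, chr9:95317710-95317959 (minus strand) for FANCC and chr15:43510729-43510890 (minus strand) for TP53BP1. RAD54L and FANCC each have 2 RefSeq starts, of which 1 is shown.
XRCC3: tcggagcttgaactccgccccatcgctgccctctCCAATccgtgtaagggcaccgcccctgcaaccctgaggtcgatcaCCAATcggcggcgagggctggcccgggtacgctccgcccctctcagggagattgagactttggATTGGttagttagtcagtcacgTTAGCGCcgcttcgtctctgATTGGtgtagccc
RAD54L: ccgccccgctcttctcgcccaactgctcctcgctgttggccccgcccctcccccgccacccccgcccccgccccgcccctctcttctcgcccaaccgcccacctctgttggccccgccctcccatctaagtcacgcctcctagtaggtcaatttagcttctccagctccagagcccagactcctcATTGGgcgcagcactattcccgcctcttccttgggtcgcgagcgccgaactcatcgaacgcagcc
FANCC: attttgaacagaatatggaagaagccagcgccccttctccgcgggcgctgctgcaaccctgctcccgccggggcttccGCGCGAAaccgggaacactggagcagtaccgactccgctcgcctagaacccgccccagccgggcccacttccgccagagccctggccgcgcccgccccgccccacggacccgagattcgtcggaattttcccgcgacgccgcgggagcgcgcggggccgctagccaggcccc
TP53BP1: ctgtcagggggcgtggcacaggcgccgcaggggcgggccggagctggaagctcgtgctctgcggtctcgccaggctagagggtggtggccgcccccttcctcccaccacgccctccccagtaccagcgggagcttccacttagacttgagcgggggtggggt
XRCC3 holds 4 CCAAT boxes and 1 TTNGCGC element in its 197 bases, and FANCC holds 1 TTNGCGC element in its 250. RAD54L holds 1 CCAAT box in 250 bases, and the 162 bases of TP53BP1 hold neither motif. Full windows of 250 bases were at hand for 35 of the 40 members (51 windows, since some genes have several starts). The members without one were NBN, WRN, XRCC5, PRKDC and FANCI, all with a positive log2 fold change, so the motif counts leave out members of that direction only. TTNGCGC was in 9 of these windows (17.6%) and in 6.601% of all 35116 windows, which are not limited to the genes tested here. By gene, TTNGCGC was in 8 of the 35 members and in 1358 of 10203 tested genes with a window. Of the 8 members with it, 7 had a negative and 1 a positive log2 fold change, beside 677 negative and 681 positive among the 1358 tested genes with it (49.9% negative). CCAAT was in 22 member windows (43.1%) and in 32.0% of all windows. By gene, CCAAT was in 17 of the 35 members and in 4218 of the 10203 tested genes with a window. The 17 members with it divided into 9 higher and 8 lower, beside 2169 higher and 2049 lower of the 4218 tested genes. A match describes these letters and not a bound site.

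Several members share exon bases with another gene, and whether the counting used strand is not given in the sources used here. The largest shares were with genes on the same strand, which a count by strand cannot separate either. RAD50, among the higher members, shares 90.6% of its exon bases with AC116366.3, and NHEJ1 shares 62.4% with AC068946.1. Both are annotated as protein-coding in GENCODE 29, and neither name has a row in the deposited table. Whether reads in the shared bases were lost to RAD50 and NHEJ1 is therefore not known. The other pairs named here lie on opposite strands. XRCC3 (chr14:103697609-103715504 in GENCODE 29) shares 45.4% of its exon bases with KLC1, a kinesin light chain, which was at 123, 98.8 and 127 CPM in sh-NC and 126, 112 and 113 CPM in shRBM10. KLC1 had a log2 fold change of 0.012, unlike XRCC3. TP53BP1 (chr15:43403061-43510728) shares 28.9% with TUBGCP4, a gamma-tubulin complex gene with a log2 fold change of -0.038. FANCL shares 26.6% with VRK2, which had a log2 fold change of 0.59 beside 0.64 for FANCL. FANCA shares 22.4% with ZNF276, at -0.26 beside -0.45 for FANCA. RAD54L (chr1:46247688-46278473) shares 17.99% with LRRC41, which had a log2 fold change of -0.27. XRCC6 (chr22:41621119-41664048), XRCC5 (chr2:216107464-216206303) and FANCC (chr9:95099054-95426796) share none with a protein-coding gene. In all, 12 members share exon bases with another protein-coding gene and 6 have a pseudogene named after them.

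RBM10 regulates exon choice, so the shares of each member's transcripts were compared as a second readout. In 30 members at least 2 RefSeq transcripts passed the filter, and 0 of the 30 had an adjusted Simes p under 0.05 in edgeR's diffSpliceDGE, against 0.0958% of 8348 genes. At an unadjusted Simes p under 0.05 the count was also 0, against 2.74% of genes. The smallest value was that of PRKDC (0.0756), which is named here after the values were seen. Its second RefSeq transcript had an estimated count of 0 in the 3 sh-NC libraries and of 29.1, 31.2 and 37.0 in libraries A to C of shRBM10. This was 1.13%, 1.17% and 2.55% of the gene's counts, where a count of 0 allows up to 0.142%, 1.44% and 0.134% in replicates 1 to 3 of sh-NC (3 counts of the total, counting error only). FANCC came next with a Simes p of 0.245. For the 10 members with 1 transcript left, XRCC5 among them, this readout gives no value.

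A further list of 80 genes of break repair, its signaling and its cofactors had a median log2 fold change of -0.083, with 37 higher and 43 lower. At an unadjusted p under 0.05, 8 were higher, against 15.7% of all genes, and 13 were lower, against 8.6%. The groups did not overlap for 23 lower genes, against 16.2% of all genes, and for 4 higher ones, against 13.8%. None of the 80 passed the adjusted limits in edgeR, and TOPORS did with DESeq2 (log2 fold change 1.43, adjusted p = 0.0289). Past the fold limit at an unadjusted p under 0.05 were 5 higher genes, against 10.1% of all genes, and 0 lower ones, against 1.53%. TOPORS, a ubiquitin and SUMO ligase, was at 5.48, 4.10 and 5.65 CPM in sh-NC and 22.3, 13.5 and 6.64 CPM in shRBM10, a log2 fold change of 1.48 (unadjusted p = 0.00639, adjusted p = 0.153, edgeR). SHLD2, a shieldin subunit that acts after 53BP1, had a log2 fold change of 1.08, WDR48, a cofactor of the deubiquitinase of FANCD2, of 1.26, and ABRAXAS1, the scaffold of the BRCA1-A complex, of 1.35. Library C was the lowest shRBM10 library in all 4. With GC and length trends removed the median of this list was -0.16, with 3 higher and 23 lower at an unadjusted p under 0.05, against 12.3% and 13.3% of all genes.

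Since recombination genes go with the cell cycle, lists of S phase, mitosis and p53 target genes were set beside them. Of 20 S phase genes 16 had a negative log2 fold change, with a median of -0.51, and 9 were lower at an unadjusted p under 0.05, against 8.6% of all genes, and 1 was higher, against 15.7%. The same 2 shares apply to the other lists. MCM5, a subunit of the replicative helicase, was at 103, 118 and 113 CPM in sh-NC and 33.0, 40.3 and 61.7 CPM in shRBM10, and BIRC5 (survivin), of the mitosis list, at 117, 188 and 118 CPM in sh-NC and 50.2, 65.2 and 72.8 CPM in shRBM10, without overlap between the groups in either gene. The median of the 20 mitosis genes was -0.30, with 2 higher and 6 lower at an unadjusted p under 0.05. That of the 20 p53 targets was -0.031, with 4 higher and 5 lower. With GC and length trends removed the medians were -0.61, -0.45 and 0.12, and without sh-NC replicate 2 they were -0.49, -0.22 and -0.19. With all libraries and no trend removed, no gene of these 3 lists passed the adjusted limits in edgeR. With GC and length trends removed, 4 did, against 1.13% of all genes, namely GINS2 and MCM5 of S phase, BIRC5 of mitosis and AEN of the p53 targets, with log2 fold changes of -1.09, -1.14, -1.002 and -1.02. DESeq2 called these 4 and, in addition, CDC45 and E2F1 of S phase and SESN1 of the p53 targets, against 4.35% of genes. The part of these lists in the values of the recombination genes was not tested. In bulk RNA, fewer cells in a phase and less RNA per cell cannot be told apart.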

How the data were processed

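Poly(A) RNA-seq of 6 PC9 libraries was analysed. The authors deposited estimated counts, TPM and other measures per gene (16306 genes) and per transcript (76563 transcripts), with reads placed on hg38 per the labels. The aligner and counter are not given in the sources used here. Of the deposited estimated counts, 87.8% were whole for genes and 41.3% for transcripts. TPM, normalized by the authors for depth and length, was used for sh-NC only, and 15 and 18 per-library columns were not used.

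Counts were rounded, filtered with filterByExpr, normalized by TMM and tested with edgeR 4.0.16 (glmQLFit, glmQLFTest; limma 3.58.1, R 4.3.3) over all genes, with Benjamini-Hochberg adjustment and no covariate. The standard error is the log2 fold change over the square root of F. A call needed a log2 fold change beyond ±1 at an adjusted p under 0.05. DESeq2 1.42.0, voom, other scalings and filters, each library left out, and loess offsets (span 0.3) on GC content and length were alternatives. Transcript usage was tested with diffSpliceDGE, giving a Simes p per gene. GC content, length and coordinates came from GENCODE 29 (GRCh38, longest principal transcript) for 12343 of 12620 genes tested and all 40 members. The fits were tested on simulated data. The labels' protocol names 2 library kits without assigning them.

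The members and lists were chosen with earlier results of these data known. All members are given by value, in full where the unadjusted p was under 0.05; of the other repair genes, up to 4 in each direction past the fold limit, by p. MCM5, BIRC5, GINS2, AEN, CDC45, E2F1 and SESN1 were named after their values were seen.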

Additional observations from a re-analysis of the deposited data

How the results depend on the processing

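No paired analysis was possible because only shRBM10 library A can be matched to a replicate number, so the groups share fewer than 2 numbers. One alternative, GC and length trends removed together with leaving out sh-NC replicate 2, was chosen after seeing the data. Of 640 log2 fold changes of single members under the 16 alternatives, 602 kept their direction and their side of the limits. Another 36 changed sign, and 2 passed the limits (TP53BP1 at 1.43 with DESeq2 and BRCA2 at -1.06 in the added fit). No member passed the limits in the first fit, so the 602 tell of the sign and little of the size. ATM, at 1.33 in the first fit and 0.25 with GC and length trends removed, is among them. So is TP53BP1, at 1.47 and 1.20. The cause of these changes was not tested.

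Members past the adjusted limits numbered 1 with DESeq2, 1 in the added fit and 0 in every other alternative. Members higher past the fold limit numbered 4 with library size only, 1 with the GC trend removed, 1 with both trends removed, 0 in the added fit, and 1 to 11 with 1 library left out (1 without A, 2 without B, 2 without sh-NC replicate 2). Members lower past it numbered 1 with the GC trend removed, 1 in the added fit, and 0 to 2 with 1 library left out. Without the fold limit, higher members numbered 6 with voom, 5 with library size only, 1 with GC, 1 with GC and length, 3 in the added fit, and 1 to 12 with 1 library left out (1 without A, 3 without B, 3 without sh-NC replicate 2). Lower members numbered 2, 7, 11 and 11 with library size only, GC, GC and length, and the added fit. With 1 library left out they numbered 1 to 8 (1 without B, 2 without sh-NC replicate 3, 8 without sh-NC replicate 2). Of all 12620 genes, 319 were higher and 278 lower past the fold limit with GC, and 324 and 251 with GC and length. Without the fold limit these were 1083 and 1252 with GC, and 1552 and 1680 with both. Without library C, of 12611 genes, 1686 were higher and 404 lower past the fold limit. Counts over all genes are not given for library size only, voom, the added fit and the fits without A or B. The median of the members was -0.066 with GC, -0.16 with GC and length, and -0.17 in the added fit. With 1 library left out it ran from 0.17 to 0.79. Of the 40 members, 19 were higher with GC, 18 with GC and length, and 16 in the added fit. In every other alternative 24 to 27 were higher. RBM10 passed the limits with DESeq2 (-1.27, adjusted p = 0.00134), GC and length (-1.002), the added fit (-1.07) and without sh-NC replicate 2 (-1.42), with -1.43 to -1.17 over the fits with 1 library left out. No member passed the adjusted limit for transcript usage in any alternative, and 0 to 4 did at an unadjusted Simes p under 0.05.

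Log2 fold changes that changed sign were, with GC removed, EXO1 -0.26, BRCA1 -0.055, BRIP1 -0.13, FANCL -0.078, FANCM -0.24; with GC and length, EXO1 -0.28, BRCA1 -0.19, BARD1 -0.097, BRIP1 -0.27, FANCM -0.41, POLQ -0.13; in the added fit, ATR -0.016, CHEK2 0.031, RBBP8 -0.13, EXO1 -0.40, BRCA1 -0.38, BARD1 -0.084, BRIP1 -0.22, PRKDC -0.18, FANCM -0.35, POLQ -0.33; with library size only, CHEK1 0.15, CHEK2 0.12, RNF8 0.099; with upper quartile scaling, CHEK1 0.023, RNF8 0.015; with voom, CHEK2 0.022, BRCA2 0.21. With 1 library left out, CHEK1 ran from -0.23 to 0.14, CHEK2 ran from -0.31 to 0.29, BRCA2 ran from -0.57 to 0.32, XRCC2 ran from -0.56 to 0.062, XRCC4 ran from -0.67 to 0.11, changing sign without sh-NC replicate 2 (CHEK1, CHEK2, XRCC4), shRBM10 library C (CHEK1, BRCA2, XRCC2), sh-NC replicate 1 (BRCA2), sh-NC replicate 3 (BRCA2). Of the 40 members 20 had under 100 counts in at least 1 library, the lowest 11, and how far depth limits their precision was not tested.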
